A study of Mus musculus with 3 samples.

Results

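The ribosomal protein genes of mouse OP9 stromal cells were taken as every probe whose gene symbol in the array's platform table begins with Rpl, Rps, Mrpl or Mrps followed by a number, or is Rpsa or one of Rplp0 to Rplp2. The Rps6k kinases, which share only the first letters, were left out with 10 probes. This gave 136 probes, of which 135 had a value on all 3 arrays. They stand for 131 genes of the 16446 named genes on the array, 57 of them cytosolic (Rpl, Rps) and 74 mitochondrial (Mrpl, Mrps). Rpl3l, a muscle paralog of Rpl3, had no value on the OP9 array and 1.7 and 1.6 on the others, and was not counted.

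Messenger RNA was measured on 1-colour oligonucleotide arrays (Toray, Cy5), with 1 array for each of 3 lines. OP9 is the parental stromal line, the line OP9-GFP expresses green fluorescent protein, and the line OP9-DL expresses the same protein together with Delta-like 1, a Notch ligand. The source of all 3 lines is the calvaria of a newborn B6C3Fe-a/a-Csf1op/Csf1op mouse, so the controls carry the Csf1op allele too, and all were kept in aMEM with serum and no treatment. The promoter that drives either transgene, and whether a line is 1 clone or a pool, were not given in the sources used here. Intensity is a probe's brightness, scaled by the authors to a median of 20 on each array. With 1 array per line there is no replicate, so no error, test or p-value can be given, and differences between cultures, labelling reactions and lines cannot be told apart.

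As background, a cytosolic ribosome is built from ribosomal RNA and a set of Rpl (large subunit) and Rps (small subunit) proteins. Most of these proteins are needed in equal numbers, and the messenger RNAs of the set rank among the most abundant of a growing cell. Many of these RNAs start with a C followed by a run of pyrimidines, the 5′ terminal oligopyrimidine motif, through which their translation follows nutrient signalling by mTOR. Mitochondrial ribosomes are a separate kind: they translate the few proteins of the mitochondrial genome, and all of their proteins are encoded in the nucleus and imported.

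Windows of 25 bases around the annotated transcription start are shown for members that the results turn on, since the start is where cytosolic and mitochondrial members differ in sequence. They come from RefSeq (GRCm38.p6), read 5′ to 3′ on the gene's strand from 10 bases before the start to 15 bases from it, at the first start listed. Capitals mark a C followed by at least 4 bases that are each C or T, beginning no more than 3 bases from the start, and reach as far as the run or the window goes.
The first set holds cytosolic genes with large differences between arrays. Rps26 lies at chr10:128626492-128626516 (minus strand), Rps7 at chr12:28635939-28635963 (minus), Rpl35 at chr2:39005117-39005141 (minus) and Rpl27a at chr7:109519185-109519209 (plus).
Rps26: gcaagccgccggatcctctttcgag
Rps7: cggtttccacccacctacttccgct
Rpl35: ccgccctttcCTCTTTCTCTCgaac
Rpl27a: cgtgagctcCTCCCTTTTCCCTTTC
The second set holds 2 pairs of paralogs, of which Rps27l and Rpl22l1 changed most on OP9-DL. Rps27 lies at chr3:90213634-90213658 (minus), Rps27l at chr9:66946076-66946100 (plus), Rpl22 at chr4:152325716-152325740 (plus) and Rpl22l1 at chr3:28805498-28805522 (plus).
Rps27: cgctttcgctCCTTTCCggcggtga
Rps27l: cctccccgccgCCTCTatcccggaa
Rpl22: cctgggaaaagcaatagctggccga
Rpl22l1: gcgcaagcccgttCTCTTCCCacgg
The last set holds 4 of the named mitochondrial genes with large differences from OP9 on both lines with GFP, rises for Mrps2 and Mrpl18 and falls for Mrpl10 and Mrps6. Mrps2 lies at chr2:28468056-28468080 (plus), Mrpl18 at chr17:12916077-12916101 (minus), Mrpl10 at chr11:97041572-97041596 (plus) and Mrps6 at chr16:92058326-92058350 (plus).
Mrps2: cgggcaggaagagtctctgcaggat
Mrpl18: agctttacccacagttaacatggct
Mrpl10: cgcagcgcgcatgggaacttcctgt
Mrps6: tcgccgtccgggagctgaccggccg

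Of 130 members looked up (Rps19bp1, which is no ribosomal subunit, was left out), 110 matched a RefSeq promoter. A gene with several listed starts was counted where any of them held the run. The same holds for the motifs and the split by the run below. The pyrimidine run began exactly at an annotated start in 11 of 45 cytosolic genes (24.4%) and in 0 of 65 mitochondrial genes. Of all 27025 genes with a RefSeq promoter, 3.01% held it there. With a shift of up to 3 bases allowed, 19 cytosolic genes (42.2%) and 9 mitochondrial genes (13.8%) held it, beside 13.5% of all genes. An annotated start can miss the used one by some bases, so a gene without a run here may still have the motif.

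The other motifs were looked for after the data were seen, on both strands of the 250 bases before and 50 bases after the start. CCGGAAG, the core bound by ETS family factors, was present in 20 of 45 cytosolic promoters (44.4%) and 24 of 65 mitochondrial promoters (36.9%), beside 9.93% of all promoters. AAGATGG, a YY1-type sequence, was present in 22.2% of the cytosolic and 18.5% of the mitochondrial promoters, beside 7.28% of all. GCATGCG, an NRF1-type sequence, was present in 8.89% of the cytosolic and 12.3% of the mitochondrial promoters, beside 4.01% of all. CCGGAAG and AAGATGG can overlap in the letters AAG, which end the first and begin the second. A match is a description of the letters and not of a bound site. The median GC content was 56.6% for the cytosolic, 58.0% for the mitochondrial and 52.8% for all promoters, the background used, so that GC content was not matched. Over the 17491 protein-coding genes, with a median GC of 56.3%, the shares were 12.9% for CCGGAAG, 7.18% for AAGATGG and 4.95% for GCATGCG.

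The lines were checked against their labels and markers. The probe of Dll1, the gene of Delta-like 1, read 14 on OP9, 20.5 on OP9-GFP and 333 on OP9-DL. Of 12 stromal markers 11 were compared, and all but Thy1 (1.1, 1.7 and 3.0) read above the brightness limit. The sum over the 12 ran from 50499 to 53450, of which Vim and Fn1 made up most, and single markers moved within it: on OP9-DL against OP9, 2 rose and 6 fell (median -0.60), and on OP9-GFP against OP9, 2 rose and 3 fell (median 0.25). Pdgfra read 801 on OP9, 166 on OP9-GFP and 127 on OP9-DL, Col3a1 read 661, 936 and 196, and Cxcl12 read 3720, 4411 and 1997. The sums for other cell types cover every marker with a value on that array, also those below the limit. Of 9 mast cell markers 3 were compared, and those with a value (8, 6 and 7 on OP9, OP9-GFP and OP9-DL) summed to 60.5 on OP9, 42.0 on OP9-GFP and 856 on OP9-DL, of which the tryptase gene Tpsab1 made up 819, and Kit had a value on OP9 only (1.6). Of 9 blood cell markers 4 were compared, and those with a value (9, 9 and 8) summed to 92.6, 104 and 223 in the same order, Cd48 making up 114 of the last, and Ptprc, which marks blood cells, read 2.1, 2.5 and 2.8. Without Tpsab1 and Cd48 the 2 sums were 37.1 and 109 on OP9-DL and 39.9 and 90.5 on OP9. The endothelial markers with a value summed to at most 34.3 (1 of 5 was compared) and the epithelial ones to at most 53.0 (2 of 6). The part of these markers in the results below was not tested.

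Probes were compared where their mean log2 intensity reached the lower quartile of all probes, an intensity of 6.13, which 15581 probes did. Of the members, 132 probes passed, standing for 56 cytosolic genes (21 of the small subunit, 34 of the large subunit and Rps19bp1, a protein that binds Rps19) and 72 mitochondrial genes (28 small, 44 large). The members below the limit were Mrpl41 (2.3 on OP9, 2.1 on OP9-GFP and 2.3 on OP9-DL), Rps12 (3.2, 3.9 and 3.4) and Mrpl15 (5.3, 9.4 and 4.2). Just above it lay Mrpl35 (9.8, 9.5 and 7.2) and Rps20 (9.5, 10.6 and 13.1). Rpl5, Rpl26, Rpl37a and Mrps30 had 2 probes each, and their probes disagreed by at most 0.56 on the log2 scale, for Mrps30 in OP9-GFP against OP9 (0.41 and -0.15).

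Cytosolic members were among the brightest probes of the arrays. Their median intensity was 10284 on OP9, 9544 on OP9-GFP and 11583 on OP9-DL, and 35, 34 and 34 of the 56 genes reached 5000. The mitochondrial median was 537, 613 and 548 in the same order, and 0 of 72 genes reached 5000. Of the cytosolic and mitochondrial probes compared, 88.1% and 80.8% were among the 3896 brightest of all 15581, those at or above an intensity of 183. Brightness differs with the probe as well as with the RNA, so the levels are read as a class and not gene against gene: cytosolic probes whose identifiers begin with M4 reached a mean of 5000 in 31 of 36 cases, against 6 of the 23 that begin with M2 or M3.

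**Figure D1:**
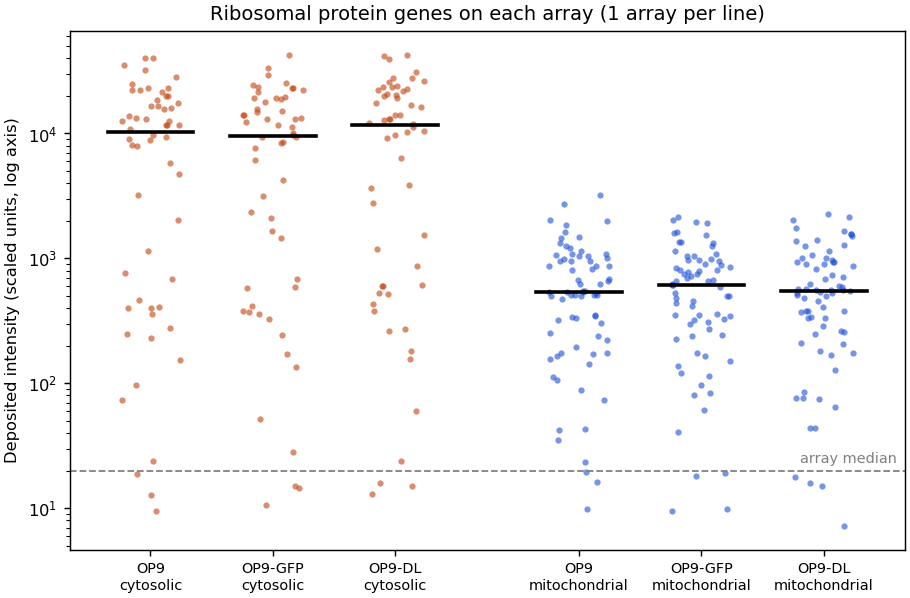
Intensity of each of the 56 cytosolic and 72 mitochondrial ribosomal protein genes on the 3 arrays, 1 for each cell line (log axis, scaled units; each point is a gene and the bar is the median). The cytosolic medians lie between 9544 and 11583 and the mitochondrial medians between 537 and 613, and both classes hold genes near 10.

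At the bright end, Rpl41, one of the smallest known proteins, read 40270, 42112 and 42590 on OP9, OP9-GFP and OP9-DL, which is the highest intensity of each array and may be a lower limit. Rpl32, of the large subunit, read 40270, 33467 and 41502, the first of which is also that array's highest value. Rps18, which lies in the head of the small subunit, read 35000, 29460 and 39760. Values at the ceiling have no order between arrays. Rpl32 and Rps18 were lowest on OP9-GFP. At the dim end, Rps20 (9.5, 10.6 and 13.1), Rpl10 (12.8, 15 and 16.1) and Rpl37 (18.9, 14.5 and 15.1) read close to the array's median of 20, although each encodes a core subunit. Among mitochondrial genes the brightest were Mrpl30 (2742, 1951 and 2276), Mrps6 and Mrpl52 (1855, 2138 and 2135), and the dimmest were Mrpl35, Mrps14 and Mrpl47 (16.4, 18.2 and 15.1).

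Differences between arrays were read on the log2 scale, and a gene was said to have risen or fallen where the intensities differed by at least 1.5-fold. The 3 comparisons share arrays and are not independent: OP9-GFP against OP9, OP9-DL against OP9, and OP9-DL against OP9-GFP. The last compares 2 lines that both carry GFP and differ in Delta-like 1.

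Against parental OP9, the cytosolic genes differed little as a class on OP9-GFP. The median log2 difference over 56 genes was -0.06 (0.02, and so above 0, under median scaling), with quartiles of -0.26 and 0.11, beside 0.02 over all probes compared. Of the 56 genes 4 rose (Rps19bp1, Rps21, Rpl30 and Rpl7l1) and 2 fell (Rps27l and Rpl22l1), where the shares over all probes were 14.0% higher and 15.4% lower by the same threshold. A difference of 2-fold or more was reached by Rps19bp1, beside 11.6% of all probes in either direction. Above 0 were 46.4% of the cytosolic genes, beside 51.7% of all probes.

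On OP9-DL most cytosolic genes were slightly brighter than on OP9, as bright probes of other genes were. The median difference was 0.13 (0.01 under lowess scaling and 0.26 under median scaling), with quartiles of -0.01 and 0.37, and 40 of 56 genes (71.4%) lay above 0, beside 51.3% of all probes. By the median the lean was no larger than that of other bright probes, while the share above 0 was larger. The 35 cytosolic genes with a mean intensity of 5000 or more had a median of 0.09, with 25 (71.4%) above 0. The 241 probes of other genes in that range had a median of 0.12, with 61.8% above 0. Of the 56 genes 7 rose (Rpl7l1, Rps7, Rps21, Rpl35, Rps26, Rpl30 and Rps15), beside 13.3% of all probes, and 2 fell (Rps27l and Rpl22l1), beside 15.7%. Under lowess scaling 4 genes and not 9 passed 1.5-fold. Differences of 2-fold or more were the falls of Rps27l and Rpl22l1, beside 11.2% of all probes.

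Between the lines with GFP, the cytosolic genes leaned towards OP9-DL by a small amount. The median difference of OP9-DL against OP9-GFP was 0.18 (0.08 under lowess scaling), with quartiles of 0.03 and 0.31, and 45 of 56 genes (80.4%) were above 0, beside 48.0% of all probes. Genes that rose were Rps26, Rps19, Rpl27a and Rpl28, 4 in all, beside 7.77% of all probes. Genes that fell were Rps27l, Rps19bp1 and Rpl22l1, 3 in all, beside 8.47%. Rps27l passed 2-fold, beside 5.04% of all probes. Both subunits leaned alike: the medians were 0.20 for 21 small subunit and 0.15 for 34 large subunit genes, with 17 and 28 genes above 0.

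The lean moved with brightness. The 35 cytosolic genes with a mean intensity of 5000 or more had a median of 0.20 in OP9-DL against OP9-GFP, with 32 above 0, and the 21 dimmer ones had 0.06, with 13 above 0. Probes of other genes in the same bright range (241 probes) had a median of 0.10, and 61.8% of them were above 0, so bright probes in general were also shifted towards OP9-DL. Probes of intensity 100 to 2500, the range of most mitochondrial members, had a median of -0.05. The lean also differed between probe series: the median was 0.26 for cytosolic probes of the M4 series, 0.18 for M2 and -0.14 for M3. The median intensity of these probes was 15090 for M4, 398 for M2 and 646 for M3, so M2 and M3 did not follow the order of brightness. The part of brightness and of the probe series in the class difference was not tested beyond these values and the scaling alternatives.

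**Figure D2:**
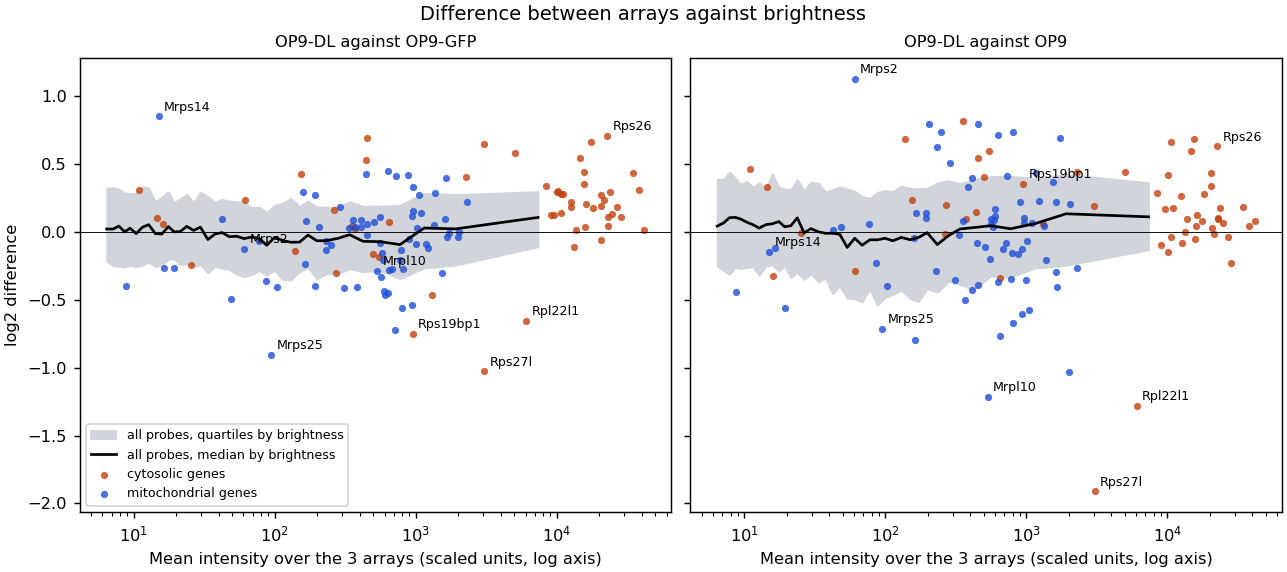
Log2 difference of each cytosolic and mitochondrial gene against its mean intensity over the 3 arrays (log axis), with the median and quartiles of all probes compared in bins of brightness, for OP9-DL against OP9-GFP and OP9-DL against OP9. In OP9-DL against OP9-GFP most bright cytosolic genes lie above 0, with Rps27l and Rpl22l1 far below, while the line for all probes also turns up at the bright end and stops at its last bin.

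Mitochondrial genes were spread on both sides of 0, with class medians near it. The median over 72 genes was -0.00 in OP9-GFP against OP9 (0.08 under median scaling), -0.03 in OP9-DL against OP9 (0.01 under quantile scaling and 0.09 under median scaling) and -0.06 in OP9-DL against OP9-GFP, where it was below 0 under every scaling tried. With the brightness limit at the 50th percentile the first 2 medians were 0.00 and 0.03, so their sign is not settled. In the first comparison 11 genes rose and 5 fell, in the second 8 rose and 7 fell, and in the last 1 rose and 2 fell. As shares of 72 genes these are close to or below the shares of all probes given above.

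The classes were set against each other by the difference of their medians. The mitochondrial median lay 0.05 above the cytosolic one in OP9-GFP against OP9, and below it by a value of -0.17 in OP9-DL against OP9 and -0.24 in OP9-DL against OP9-GFP. Under quantile scaling the last 2 values were -0.04 and -0.12, and under lowess scaling -0.03 and -0.12. Over all members the spread was narrower for the cytosolic genes: their interquartile range was 0.37, 0.38 and 0.27 in the 3 comparisons, that of the mitochondrial genes 0.61, 0.53 and 0.37, and that of all probes 0.70, 0.70 and 0.51. The narrow spread was that of the bright genes: the 21 cytosolic genes below 5000 had ranges of 0.90, 0.44 and 0.49, wider than those of the mitochondrial genes in 2 of the 3 comparisons. Probes of other genes at or above 5000 had ranges of 0.52, 0.52 and 0.41.

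**Figure D3:**
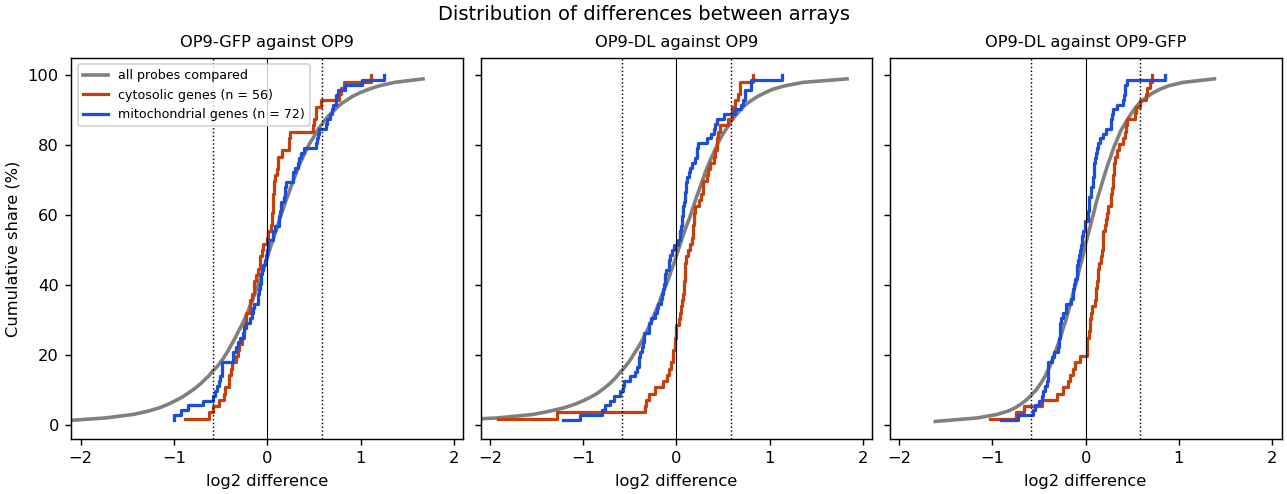
Cumulative share of genes (percent) against log2 difference for 56 cytosolic genes, 72 mitochondrial genes and all 15581 probes compared, 1 panel per comparison. The cytosolic curve is the steepest in each panel and is shifted to the right in OP9-DL against OP9-GFP (median 0.18), where the mitochondrial median is -0.06.

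The order of the arrays gives the same picture gene by gene. Of 56 cytosolic genes 28 (50%) had their lowest value on OP9-GFP, beside 28.9% of all probes, and 33 (58.9%) had their highest on OP9-DL, beside 30.6%. With quantile scaling 21 and not 33 were highest on OP9-DL. The 33, like the counts above 0, include Rpl41, at the ceiling on every array, and Rpl32, at the ceiling on OP9. Among mitochondrial genes 29 (40.3%) were highest on OP9, 28 (38.9%) on OP9-GFP and 15 (20.8%) on OP9-DL. The shares of all probes were 36.1%, 32.6% and 30.6% in the same order. Few genes stood at least 1.5-fold apart from both other arrays. Rpl22l1, Rps27l, Mrpl10 and Mrps6 stood higher on OP9 (10.0% of all probes did so), and 3 cytosolic and 7 mitochondrial genes stood lower on OP9 (7.42% of all probes). Rps19bp1 and Mrpl32 stood higher on OP9-GFP (3.39% of all probes), and Mrps14 stood lower on it (3.23%). Rps26 stood higher on OP9-DL (3.06% of all probes), and Rpl22l1, Rps27l and Mrps25 stood lower on it (3.84%).

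The clearest departures among cytosolic genes were paralogs. Rps27l, a near copy of Rps27 known as a target of p53, had an intensity of 5837 on OP9, 3164 on OP9-GFP and 1554 on OP9-DL. OP9 was highest and OP9-DL lowest, and OP9-DL was 3.76-fold below OP9 (log2 difference -1.91) and 2.04-fold below OP9-GFP. Rps27 itself read 13875, 11256 and 13114, with log2 differences from OP9 of -0.30 and -0.08, within 1.5-fold on every array.

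Rpl22l1, a paralog of the RNA-binding protein Rpl22 whose level is known to rise when Rpl22 is lost, read 9398 on OP9, 6097 on OP9-GFP and 3872 on OP9-DL. The order of the lines was that of Rps27l, and OP9-DL was 2.43-fold below OP9 (log2 difference -1.28) and 1.57-fold below OP9-GFP. Rpl22 read 74.0, 51.5 and 60.5, with log2 differences of -0.52 and -0.29 from OP9, within 1.5-fold on every array. The Rpl22 probe was dim beside the cytosolic medians of 10284, 9544 and 11583, so the pair is compared at unlike brightness. On OP9-GFP the pair thus differed from OP9 by similar amounts (-0.62 and -0.52), and on OP9-DL by -1.28 and -0.29. Under median scaling the difference of Rpl22l1 between OP9-GFP and OP9 no longer passed 1.5-fold.

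Rpl7l1, a nucleolar relative of Rpl7 that takes part in large subunit assembly, went the other way. It read 246 on OP9, 420 on OP9-GFP and 434 on OP9-DL, a rise of 0.77 and 0.82 on the log2 scale in both lines with GFP, which did not differ from each other by more than 0.05. Rpl7 read 11619, 12286 and 13957, with differences from OP9 of 0.08 and 0.26.

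**Figure D4:**
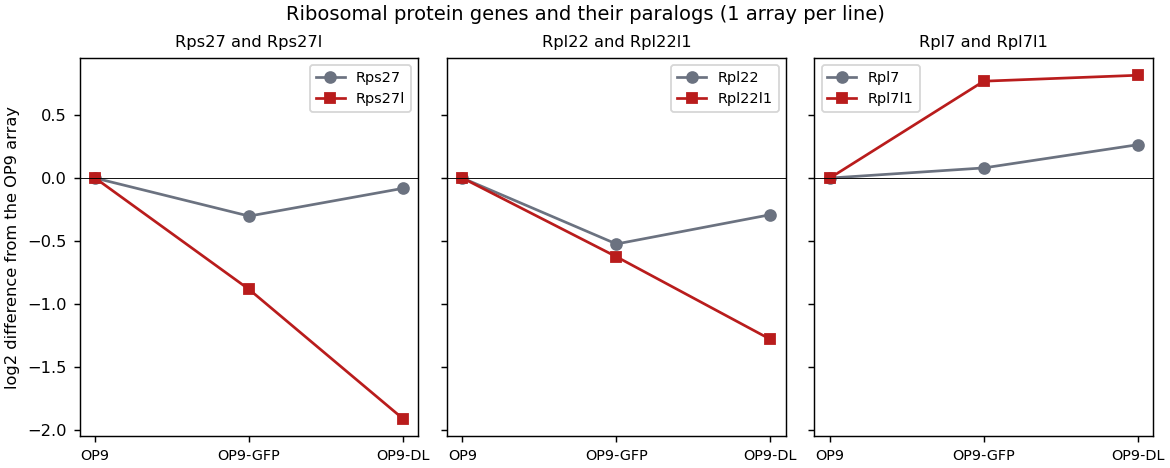
Log2 difference from the OP9 array for Rps27 and Rps27l, Rpl22 and Rpl22l1, and Rpl7 and Rpl7l1, 1 array per line; lines join the values of 1 gene and imply no order of the cell lines. Rps27l and Rpl22l1 drop to -1.91 and -1.28 on OP9-DL while Rps27 and Rpl22 stay between -0.52 and 0, and Rpl7l1 rises to 0.82 where Rpl7 reads 0.26.

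Rps19bp1, which encodes a nucleolar binding partner of Rps19 and of the deacetylase Sirt1, read 680 on OP9, 1462 on OP9-GFP and 870 on OP9-DL. OP9-GFP stood above both other lines, by 1.11 and 0.75 on the log2 scale. Rps19, a small subunit protein mutated in Diamond-Blackfan anaemia, read 412, 373 and 602, and was high on OP9-DL, by 0.69 over OP9-GFP and 0.55 over OP9. Without the 3 paralogs and Rps19bp1 the cytosolic medians were -0.06, 0.13 and 0.19 over 52 genes. No gene of these 52 fell past 1.5-fold in any comparison, since the genes that fell were among those left out. Those that rose were 2, 6 and 4 (3.85%, 11.5% and 7.69%), beside 14.0%, 13.3% and 7.77% of all probes.

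In the small subunit, Rps26, which lies where the messenger RNA leaves the ribosome, read 19937 on OP9, 18857 on OP9-GFP and 30837 on OP9-DL. OP9-DL stood above the other lines, by 0.63 and 0.71, and both differences fell below 1.5-fold under lowess scaling, the first also under quantile scaling. Rps7, which is also known to bind Mdm2, read 12493, 14775 and 20087, with OP9-DL highest, 0.69 above OP9 (under 1.5-fold with quantile or lowess scaling) and 0.44 above OP9-GFP. Rps15 read 12651, 13142 and 19117, and OP9-DL was 0.60 above OP9 and 0.54 above OP9-GFP. Rps21 read 97.8, 173 and 157, lower on OP9 than on both other lines by 0.82 and 0.68.

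Rps25, Rps24 and Rpsa stayed within 1.5-fold. Rps25, known for its part in initiation at viral internal entry sites, read 399, 593 and 529, and Rps24 read 230, 326 and 264. OP9 was lowest for both. Rpsa, the laminin receptor precursor that doubles as a small subunit protein, read 768 on OP9, 578 on OP9-GFP and 608 on OP9-DL, and its highest value was that of OP9.

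In the large subunit, Rpl27a read 19769 on OP9, 13184 on OP9-GFP and 20871 on OP9-DL. OP9-GFP was low, by 0.66 against OP9-DL, a difference that did not pass 1.5-fold under quantile or lowess scaling. Rpl28 read 3218, 2338 and 3667 with the same order, 0.65 between the lines with GFP. Rpl39, which lines the exit tunnel, read 4700, 4267 and 6392, with OP9-DL highest and 0.58 above OP9-GFP, just under 1.5-fold.

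Rpl35, which lies near the mouth of that tunnel, read 8102 on OP9, 11628 on OP9-GFP and 12835 on OP9-DL, and OP9 was lowest. The difference of OP9-DL from OP9 was 0.66 and was under 1.5-fold with quantile or lowess scaling. Rpl30 read 398, 686 and 603, with OP9 lowest by 0.79 and 0.60, the latter under 1.5-fold with lowess scaling. Rpl29 read 1146, 1645 and 1194, highest on OP9-GFP and within 1.5-fold.

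Mitochondrial genes that were low on OP9 were spread over both subunits. Mrps2, a small subunit protein with a bacterial counterpart, read 35 on OP9, 83.4 on OP9-GFP and 76.5 on OP9-DL, 2.38-fold and 2.19-fold above OP9. Mrpl18, which is also known to help import ribosomal RNA into mitochondria, read 537, 1084 and 896, a rise of 1.01 and 0.74. The lines with GFP lay close together for both genes, within 0.27.

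A further 5 mitochondrial genes were at least 1.5-fold lower on OP9 than on both other arrays. For the large subunit, Mrpl9 read 174, 308 and 288, Mrpl20 read 1250, 2033 and 2022, and Mrpl50 read 171, 275 and 263. For the small subunit, Mrps5 read 143, 243 and 249 and Mrps18b read 319, 531 and 554. In all 5 the lines with GFP differed from each other by 0.10 or less. These genes with Mrps2 and Mrpl18 are 9.72% of the 72, beside 7.42% of all probes. Against OP9, Mrpl49, Mrpl12 and Mrps26 rose on OP9-GFP, by 0.73, 0.67 and 0.63, and did not pass 1.5-fold on OP9-DL.

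The opposite order, highest on OP9, was led by Mrpl10 and Mrps6. Mrpl10, of the stalk base that recruits translation factors, read 875 on OP9, 460 on OP9-GFP and 377 on OP9-DL, differences of -0.93 and -1.21 from OP9. Mrps6, of the small subunit, read 3197, 1601 and 1562, 2.05-fold lower on OP9-DL than on OP9 (-1.03), with the lines with GFP within 0.04 of each other. Mrpl23 read 1456, 807 and 975 and fell on OP9-GFP by 0.85 on the log2 scale, while its difference on OP9-DL was -0.58. Mrps15 read 2049, 1266 and 1666 and fell on OP9-GFP by 0.69.

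Some mitochondrial genes were low on OP9-DL. Mrps25 read 107 on OP9, 122 on OP9-GFP and 65.1 on OP9-DL, below the others by -0.71 and -0.90. Mrps34 (224, 152 and 129) and Mrpl27 (867, 618 and 508) were highest on OP9 and fell on OP9-DL by 0.80 and 0.77 against it. Mrpl36 (960, 893 and 604) and Mrps7 (1092, 1040 and 717) fell on OP9-DL against OP9 by 0.67 and 0.61, and neither passed 1.5-fold under median scaling.

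On OP9-GFP, Mrpl32 stood at least 1.5-fold higher and Mrps14 lower than on both other arrays. Each is 1.39% of the 72 genes, beside 3.39% and 3.23% of all probes. Mrpl32, which is cut by a mitochondrial protease before it joins the large subunit, read 629 on OP9, 980 on OP9-GFP and 593 on OP9-DL, highest on OP9-GFP by 0.64 and 0.72, the former under 1.5-fold with lowess scaling. Mrps14 read 19.6, 9.8 and 17.7, lowest on OP9-GFP at 2-fold below OP9 and 0.85 (log2) below OP9-DL, at intensities around the array's median. Mrps10, which was highest on OP9-DL, read 504, 608 and 827, and OP9-DL was 0.72 above OP9.

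Further named mitochondrial genes differed by less than 1.5-fold. Mrpl13 read 1046, 699 and 933, Mrpl4 read 509, 359 and 482, and both were lowest on OP9-GFP. Mrpl2 read 657, 660 and 876, highest on OP9-DL by 0.42 and 0.41. Mrps27, a pentatricopeptide repeat protein, read 42.6, 61.7 and 43.7, highest on OP9-GFP.

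The 49 members named by rule were chosen mainly as the highest or lowest of their class, so their share past 1.5-fold follows from that choice. Of all 147 differences of these members, 48 passed 1.5-fold. Under quantile scaling 44 of these still did, under median scaling 45 and under lowess scaling 41.

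Cytosolic genes were also split by the pyrimidine run near the start. In OP9-DL against OP9-GFP the median was 0.14 over 19 genes with a run beginning within 3 bases of the start (as in Rpl35 and Rpl27a above). It was 0.19 over 25 genes without one there (as in Rps26 and Rps7), although both of these windows hold such a run further along. Above 0 were 13 of the 19 and 24 of the 25, with lower quartiles of -0.09 and 0.07. In OP9-DL against OP9 the medians were 0.14 and 0.17, and in OP9-GFP against OP9 -0.06 and -0.08. Rps27l and Rpl22l1, which fell on both lines with GFP, hold a run within 3 bases of the start, as does Rps27, which did not.

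Genes that build ribosomes rose in both lines with GFP while the ribosomal protein medians stayed within 0.13 of 0 (0.26 with median scaling). Of 50 listed ribosome biogenesis genes 46 were compared. Against OP9, 30 rose and 0 fell on OP9-GFP (median 0.67), and 25 rose and 1 fell on OP9-DL (median 0.61). Over all probes, 14.0% rose and 15.4% fell in the first comparison and 13.3% and 15.7% in the second. Both counts rest on the same OP9 array and have no replicate.

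The genes involved span the steps of assembly. Nop58, a core protein of the particles that methylate ribosomal RNA, read 663 on OP9, 1802 on OP9-GFP and 1421 on OP9-DL, 2.72-fold and 2.14-fold above OP9. Rrp9, of the U3 particle, read 150.0, 403 and 297. Ebna1bp2 (937, 2327 and 2113) and Mrto4 (486, 1045 and 1083), both of large subunit assembly, were the highest on OP9-DL against OP9, at 1.17 and 1.16. At the other end were Imp4 (60.8, 55.4 and 38.2), which fell on OP9-DL, and Ubtf (419, 384 and 301), a factor of RNA polymerase I, which stayed within 1.5-fold.

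Between the lines with GFP the biogenesis list had a median of -0.14, with 0 genes up and 3 down of 46, beside 7.77% and 8.47% of all probes. The falls were Tcof1 (149, 226 and 119; -0.93), the treacle gene of ribosomal RNA synthesis, Pes1 (10.1, 15.4 and 8.5; -0.86) and Npm1, nucleophosmin (10192, 16972 and 11219; -0.60). Nhp2 (203, 273 and 378) and Rrs1 (369, 504 and 691) lay at the upper end, at 0.47 and 0.46.

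Cytosolic translation factors were counted against the same shares of all probes. Of 38 listed genes 33 were compared, and 6 rose and 1 fell on OP9-GFP against OP9 (median 0.22), 7 rose and 2 fell on OP9-DL against OP9 (0.13), and 2 rose and 5 fell on OP9-DL against OP9-GFP (0.03). The shares over all probes in the 3 comparisons were 14.0% and 15.4%, 13.3% and 15.7%, and 7.77% and 8.47%, so that several of these counts lie near the background. Eif3a, the scaffold of initiation factor 3, read 183 on OP9, 395 on OP9-GFP and 406 on OP9-DL. Eif2s1, a subunit of the factor that brings the initiator tRNA, read 6.2, 11.3 and 14.5, close to the brightness limit, and was above OP9 by 0.87 and 1.23. Other subunits of initiation factor 3 went both ways. Eif3k read 4238, 2506 and 2493, low on both lines with GFP, and Eif3i read 3380, 3296 and 1236, low on OP9-DL. Eif3m read 692, 1094 and 1090, above OP9 by 0.66 on both lines with GFP. The remaining subunits compared were within 1.5-fold of OP9 on both lines with GFP. Naca, a chaperone of nascent chains whose RNA is regulated like those of ribosomal proteins, read 6367, 6171 and 10487, high on OP9-DL by 0.76 over OP9-GFP, and Eif3f read 2890, 2040 and 3262, high by 0.68. Eif4a2, an RNA helicase, read 1403, 1737 and 985, low on OP9-DL by -0.82.

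Genes of mitochondrial translation and ribosome assembly were counted in the same way. Of 29 listed 28 were compared, and 4 rose and 3 fell (median -0.09), 3 rose and 6 fell (0.01), and 1 rose and 2 fell (-0.05) in the 3 comparisons, beside the shares of all probes just given. Tfb2m, a mitochondrial transcription factor, read 48.4 on OP9, 119 on OP9-GFP and 142 on OP9-DL, above OP9 by 1.30 and 1.56. Polrmt, the polymerase it works with, read 67.6, 148 and 72.6 and was high on OP9-GFP only. Rmnd1, which anchors mitochondrial ribosomes near their messages, read 229, 119 and 124, low on both lines with GFP by -0.95 and -0.89. Dhx30, a helicase of mitochondrial ribosome assembly, read 23.2, 12.9 and 26.4, low on OP9-GFP by 0.85 against OP9 and 1.03 against OP9-DL. Ddx28 (119, 73.8 and 71.0) and Fastkd2 (57.7, 116 and 93.4), both of large subunit assembly, went opposite ways against OP9, by -0.74 and 0.70 on OP9-DL. Rbfa, of small subunit maturation, read 190, 176 and 115 and fell on OP9-DL against OP9-GFP, while Tsfm, an elongation factor, read 351, 365 and 451, within 1.5-fold.

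**Figure D5:**
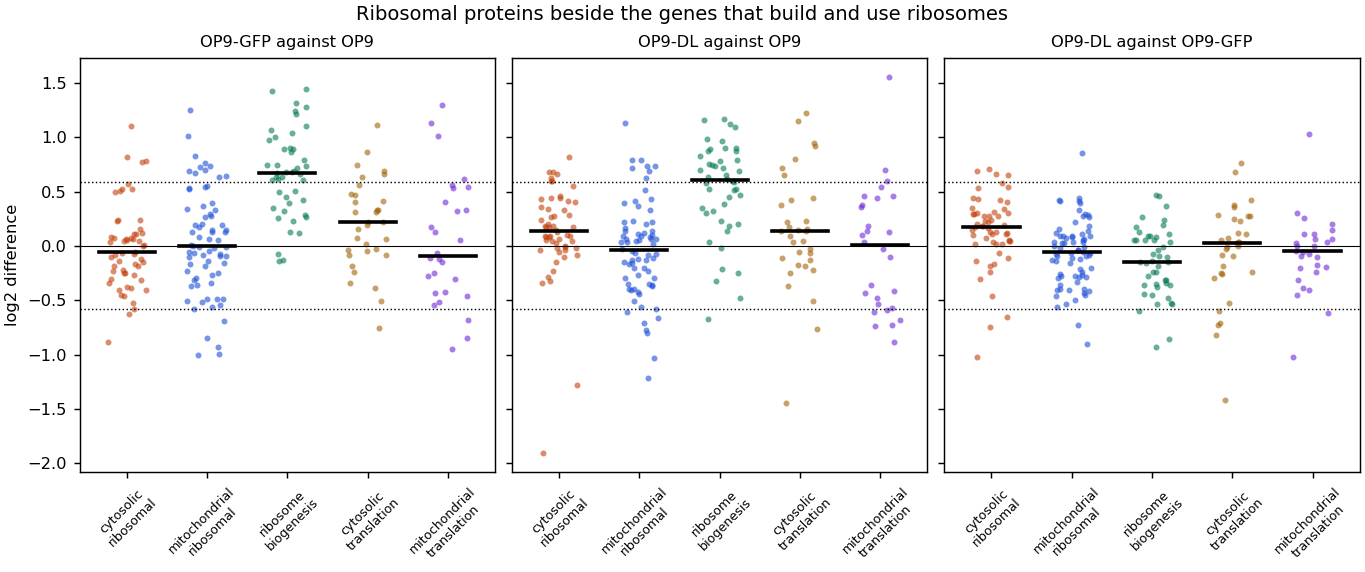
Log2 differences of cytosolic and mitochondrial ribosomal protein genes beside those of ribosome biogenesis, cytosolic translation factor and mitochondrial translation genes, 1 panel per comparison; points are genes and bars are medians. The biogenesis genes are shifted up against OP9 on both lines with GFP (medians 0.67 and 0.61), where the ribosomal protein medians lie between -0.06 and 0.13.

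Ribosomal proteins that carry other symbols, and so were not members, showed values within the same range. Fau, whose product yields a small subunit protein, read 13352, 12299 and 12505 and was the 1 compared of 3 cytosolic genes listed. Of 5 mitochondrial genes listed 3 were compared; Chchd1 read 553, 651 and 663 and Ptcd3 read 1304, 931 and 1179, within 1.5-fold, and Gadd45gip1 read 364, 278 and 233, a difference of -0.64 on OP9-DL against OP9.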

How the data were processed

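Total RNA of 3 cell lines was amplified, labelled with Cy5 and hybridised to 1 array each, per the labels' protocols. The deposited values are probe intensity on a linear scale, scaled by the authors so that the median is 20 on each array, as the values show; scanner, background correction and blank rule were not given in the sources used here. Log2 was taken of the intensities as deposited, with nothing added. Of 23473 probes, 20775 had a value on all 3 arrays and 15581 passed the brightness limit (25th percentile of the mean log2 value). Genes with several probes took the mean log2 value. With 1 array per line, differences and fold changes are given without a test, and the number of arrays limits the precision. Symbols came from the platform table (16631 probes had 1 symbol) and were brought up to date with a gene table of GRCm38.p6; 1 member was renamed. Promoter sequences are RefSeq's.

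Named were the 5 highest and 5 lowest genes of each class and comparison, paralogs, the 3 brightest and 3 dimmest of each class, genes whose probes disagree by over 1, and the 2 highest and lowest of each pathway list. Further genes complete small counts or were chosen after their values were seen (Rps27, Rpl22, Rpl7, Npm1, Eif3m, Fau and the marker genes). The members, lists and thresholds were chosen with earlier results of these data known. Alternatives were quantile, median and lowess scaling (span 0.3), other brightness limits, a constant of 2, thresholds of 2-fold and 1.25-fold, the brightest probe per gene, probes in place of genes, and leaving out probes at an array's highest value or paralogs. Bands of brightness, probe series and 3 promoter motifs were chosen after seeing the data. Scripts were tested on simulated data and ran on Python 3.11.15, with statsmodels 0.14.6, pandas 2.3.3, numpy 2.4.6 and matplotlib 3.10.9.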

Additional observations from a re-analysis of the deposited data

How the results depend on the processing

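Scaling decided the sign of small medians. Under median scaling, which moves the median of all probes in OP9-DL against OP9 by 0.12, the cytosolic and mitochondrial medians of OP9-GFP against OP9 were 0.024 and 0.078, those of OP9-DL against OP9 were 0.26 and 0.090, and the biogenesis median of OP9-DL against OP9 was 0.73. Under quantile scaling the mitochondrial median of OP9-DL against OP9 was 0.0065, the mitochondrial minus cytosolic gap was -0.0386 there and -0.12 in OP9-DL against OP9-GFP, and 21 cytosolic genes were highest on OP9-DL. Under lowess scaling the cytosolic medians of OP9-DL against OP9 and against OP9-GFP were 0.0065 and 0.078, the gaps -0.030 and -0.12, and 4 cytosolic genes passed 1.5-fold in OP9-DL against OP9. A brightness limit at the 50th percentile gave mitochondrial medians of 0.0038 in OP9-GFP against OP9 and 0.027 in OP9-DL against OP9. Apart from the lowess and quantile curves, whose construction follows brightness, the cause was not tested.

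Counts follow for OP9-GFP against OP9, OP9-DL against OP9 and OP9-DL against OP9-GFP in turn. At 2-fold, 1, 2 and 1 cytosolic and 3, 3 and 0 mitochondrial genes passed. At 1.5-fold the counts were 6, 9 and 7 and 16, 15 and 3. At the lower threshold, 20, 21 and 17 cytosolic and 35, 33 and 22 mitochondrial genes passed. Of all probes, 27.1%, 26.9% and 19.4% were higher by the lower threshold and 26.2%, 26.7% and 21.1% were lower. Both ways together, each class passed it in a smaller share than all probes did. Higher alone, the cytosolic share was larger on OP9-DL than that of all probes, at 30.4% against OP9 and 23.2% against OP9-GFP. Among cytosolic genes with a mean intensity of 5000 or more it was 22.9% in both comparisons. Probes of other genes in that range had shares of 28.2% and 22.8%. The cytosolic median of OP9-DL against OP9-GFP ranged from 0.08 to 0.22, and the biogenesis median of OP9-GFP against OP9 from 0.64 to 0.75, over the alternatives run. No paired analysis was possible because each line has 1 array and the labels give no replicate numbers; leaving out a replicate was likewise not possible. Probes that share an array's highest value and probes near the brightness limit give the least certain differences.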
